A study of Mus musculus with 12 samples.

Results

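The merged list of accessible regions held 170548 intervals, of which 137884 lay on autosomes, had their centre more than 1 kb from any transcription start site (TSS) and were at most 5000 bp wide. Of these distal regions, 8229 (5.97%, 95% Wilson interval 5.84 to 6.09) had at least 90% of their bases soft-masked, that is, written in lower case as repeated sequence in the mouse reference genome. They are called masked distal regions here. The selection used position, width and masking, and no measured signal. The list came from ATAC-seq, in which the Tn5 transposase cuts accessible DNA, and was deposited with 12 libraries of mouse embryonic stem (ES) cells in 6 groups of 2. ZHBTc4 cells, in which a Tet-Off promoter drives the Pou5f1 transgene encoding OCT4, were left untreated or were given doxycycline (dox) at 1 µg/ml for 24 hr. 2TS22C cells, in which a Tet-Off promoter drives Sox2, were left untreated or given the same dose for 26 or 40 hr. Untreated cells of each line carried the same Tet-Off transgene, and all cells of these libraries grew in serum with LIF and the inhibitors CHIR99021 and PD184352. The list joins peaks of both lines, and whether peaks of ZHBTc4 cultures in other media also entered it is not given in the sources used here. It carries no score or count per library, so no untreated and dox-treated samples could be compared, no value below has a replicate error, and the sequencing depth behind a region is unknown.

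Much of the mouse genome derives from transposable elements. LINE-1 (L1) elements copy themselves through RNA, and the young mouse L1 families carry a promoter made of repeated units, called monomers, ahead of their reading frames. Endogenous retroviruses are flanked by long terminal repeats (LTRs) that hold promoter and enhancer sequence, whereas SINEs are short elements transcribed by RNA polymerase III. In ES cells many of these elements are kept silent by DNA methylation and by TRIM28 and SETDB1, while some act as promoters or enhancers. The masking marks repeated bases without naming the element, and no catalogue of repeat families was used here. Groups of related sequence are therefore numbered by size and described by their traits.

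Members of 9 sequence groups are printed because these groups carried the motifs and the copy patterns described below. For each group of at least 100 regions with a motif in at least 15% of its regions, the printed member was the one at most 300 bp wide that held the group's leading motif and was most like the representative. Letters are from RefSeq GRCm38, and capitals mark exact matches on either strand. In G1 the region was chr2:21756688-21756918 (minus strand, in an intron), with the YY1 motif AAGATGGCG in capitals. In G2 it was chr4:144172103-144172302 (plus strand, intergenic), with the AP-2 motif GCCNNNGGC in capitals. In G5 it was chr7:140653952-140654190 (plus strand, intergenic), with 1 AP-2 and 2 YY1 matches.
G1: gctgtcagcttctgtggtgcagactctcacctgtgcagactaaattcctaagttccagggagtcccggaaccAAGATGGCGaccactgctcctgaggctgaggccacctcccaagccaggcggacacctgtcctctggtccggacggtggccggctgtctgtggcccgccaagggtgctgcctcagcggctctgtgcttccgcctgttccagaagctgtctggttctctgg
G2: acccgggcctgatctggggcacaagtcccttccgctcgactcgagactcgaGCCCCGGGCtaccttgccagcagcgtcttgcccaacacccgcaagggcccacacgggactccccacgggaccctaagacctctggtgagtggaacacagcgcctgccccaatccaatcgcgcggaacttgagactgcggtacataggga
G5: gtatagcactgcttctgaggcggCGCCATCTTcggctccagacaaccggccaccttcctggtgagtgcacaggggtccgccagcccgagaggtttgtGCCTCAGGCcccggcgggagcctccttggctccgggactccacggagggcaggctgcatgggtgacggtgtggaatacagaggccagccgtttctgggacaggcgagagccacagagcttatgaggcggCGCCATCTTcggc
G3 and G6 were the groups of at least 100 regions richest in the octamer ATGCAAAT, the motif bound by OCT4 and other POU factors. The G3 region was chr6:149266359-149266650 (minus strand, intergenic). The G6 region was chr14:10169058-10169312 (plus strand, in an intron), with the TEAD motif ACATTCC also in capitals.
G3: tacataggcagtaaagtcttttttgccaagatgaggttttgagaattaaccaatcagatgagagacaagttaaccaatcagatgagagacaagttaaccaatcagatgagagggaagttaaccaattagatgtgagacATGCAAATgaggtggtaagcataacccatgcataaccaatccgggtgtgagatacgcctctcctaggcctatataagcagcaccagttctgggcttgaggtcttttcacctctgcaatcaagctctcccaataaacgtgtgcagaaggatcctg
G6: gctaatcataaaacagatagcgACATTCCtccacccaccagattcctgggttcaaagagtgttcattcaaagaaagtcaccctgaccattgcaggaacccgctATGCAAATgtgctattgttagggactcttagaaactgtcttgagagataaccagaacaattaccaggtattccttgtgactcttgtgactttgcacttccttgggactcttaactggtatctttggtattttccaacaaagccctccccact
G4, G8, G11 and G12 are shown for comparison of copies that often or seldom overlapped a merged region. The G4 region was chr15:96027915-96028126 (plus strand, AP-2 in capitals), the G8 region chr5:73859822-73860078 (minus strand, YY1 in capitals), the G11 region chr1:45573182-45573364 (plus strand, TEAD in capitals) and the G12 region chr2:87377559-87377690 (minus strand, YY1 in capitals), all of them intergenic.
G4: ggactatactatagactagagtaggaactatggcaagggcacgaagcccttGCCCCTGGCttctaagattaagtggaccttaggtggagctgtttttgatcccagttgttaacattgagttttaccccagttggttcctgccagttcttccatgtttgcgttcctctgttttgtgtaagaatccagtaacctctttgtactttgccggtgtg
G8: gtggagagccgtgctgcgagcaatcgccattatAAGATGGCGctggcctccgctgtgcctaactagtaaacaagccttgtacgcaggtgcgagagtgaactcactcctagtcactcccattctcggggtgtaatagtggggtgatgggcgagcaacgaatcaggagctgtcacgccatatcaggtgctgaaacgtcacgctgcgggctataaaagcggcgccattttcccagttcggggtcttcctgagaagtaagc
G11: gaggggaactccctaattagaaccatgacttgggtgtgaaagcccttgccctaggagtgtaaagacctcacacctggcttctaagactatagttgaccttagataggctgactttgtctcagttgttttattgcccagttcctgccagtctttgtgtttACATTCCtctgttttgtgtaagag
G12: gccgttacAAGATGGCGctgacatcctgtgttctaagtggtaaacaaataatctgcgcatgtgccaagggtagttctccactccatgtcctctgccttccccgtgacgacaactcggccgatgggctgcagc

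Masked regions were scarcer in the accessible list than in the genome around it. When the widths of the 137884 distal regions were placed at random on assembled bases of the same chromosome, again more than 1 kb from any TSS, 11.4% of the windows were at least 90% masked on average over 100 placements, with a range of 11.3% to 11.6%. The observed 5.97% was 0.522 times this mean. Of the masked distal regions, 4099 were masked over their whole length, and 29310 of all distal regions (21.3%) held no masked base. On the autosomes 33.5% of assembled bases were masked. The ratio lay below 1 on each of the 19 autosomes, from 0.394 on chromosome 7 to 0.598 on chromosome 16.

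**Figure D1:**
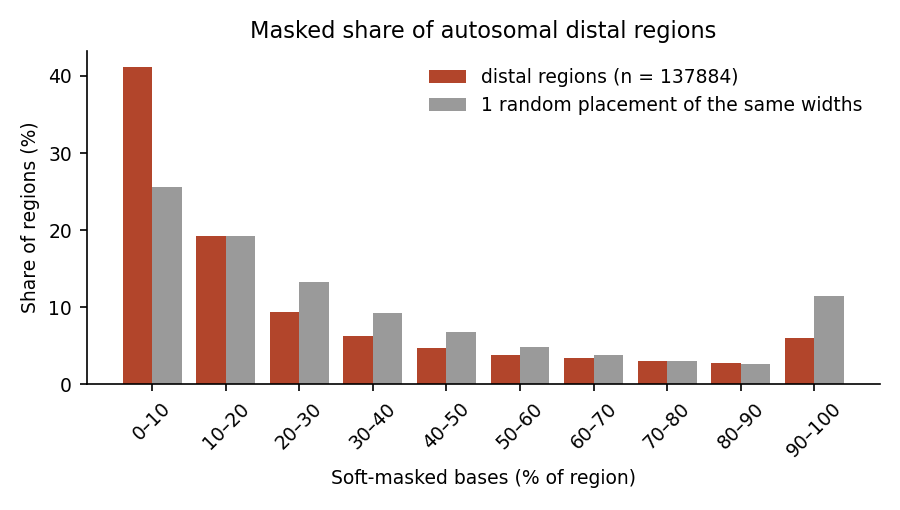
Share of autosomal distal regions (red) and of windows of 1 random placement of the same widths (grey) in each class of soft-masked bases, in percent. The top class holds 5.97% of the regions and 11.4% of the placed windows, while the lowest class holds 41.2% and 25.6%.

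The deficit was seen in every width class. Masked distal regions were narrower than the other 129655 distal regions, with a median width of 269 bp (quartiles 185 and 454 bp, range 116 to 3117 bp) against 349 bp. Width is tied to the selection, since a narrow region fits more easily within a repeat, and placed windows that met the same rule had a median of 300 bp. Among regions under 200 bp wide, 8.46% were masked against 14.0% of placed windows, a ratio of 0.603. Among regions of 500 to under 1000 bp the ratio was 0.428, with 4.06% against 9.50%. In the widest class, of 1000 bp or more, it was 0.542.

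**Figure D2:**
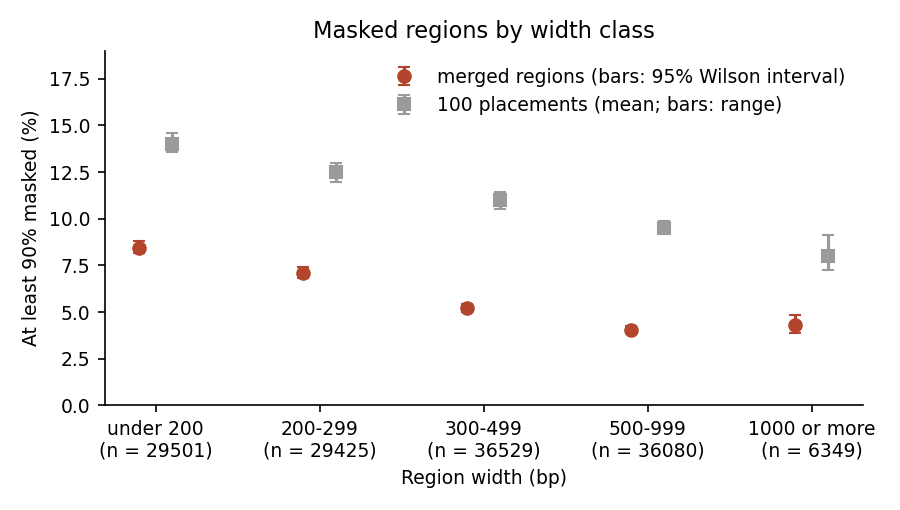
Percent of regions that are at least 90% masked, by region width, for merged regions (red, bars give the 95% Wilson interval) and for 100 random placements (grey squares, bars give the lowest and highest placement). Merged regions lie below the placements in all 5 classes.

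The accessible masked regions were not a cross-section of masked sequence. Aligned to each other, 7618 of the 8229 (92.6%) had at least 1 partner that was 75% identical or more over at least 50% of both sequences. Representatives chosen from the most connected regions gave 26 groups, each seeded by at least 40 related regions, and 5157 regions (62.7%) aligned to one of them. Of the 15771 windows of the first random placement that met the same masking rule, 1634 (10.4%) did. The groups were built from the accessible regions, so this difference is a description and was not tested.

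Groups in which long tandem units occurred held more masked distal regions than any other kind of group. A group was called a tandem-unit group where at least 10% of its regions matched their own sequence at a shift of 50 to 400 bp over 75% or more of the central 300 bp, and this held for G1, G2, G5 and G15. These 4 groups held 2599 regions (31.6%), but 312 of the placed masked windows (1.98%). As the groups were built from the accessible regions, a higher share among these is favored by construction. G1 held 1197 regions (14.55% of members, 1.07% of placed masked windows) and G2 held 1095 (13.3% and 0.742%). The search for the unit itself did not use the groups. It detected a unit in 1300 masked distal regions (15.8%), 1219 of them in these groups, and in 1.67% of placed masked windows. In the masked distal regions the unit recurred every 208 bp at the median (quartiles 208 and 212 bp). In 1176 of the 2599 regions (45.2%) a reading frame without stop codon of at least 3000 bp lay within 8 kb of the centre, compared with 4.51% of all other masked distal regions and 13.9% of placed masked windows. The median frame there was 3900 bp long and lay 1446 bp from the region's edge (quartiles 1330 and 1668 bp). In 1157 of the 1176 (98.4%) it read away from the region, against 161 of 254 (63.4%) for such frames at other masked distal regions. Repeated units ahead of a long reading frame are, as background, the layout of young L1 promoters, but the frames were not translated or compared with an L1 protein.

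Many genomic copies of these tandem-unit groups overlapped a merged region. On the autosomes 14778 stretches matched one of their representatives over at least 50% of its length, and 32.1% of these copies overlapped a merged region by at least 100 bp. For G1 this was 2238 of 6270 copies (35.7%) and for G2 1594 of 5470 (29.1%). Over the copies of all 26 groups together it was 4.149% of 372178. That total is weighted to G21, G9, G10 and G17, with 122216, 73044, 66655 and 34488 copies. Among groups not called tandem-unit groups the share ran from 0.452% (G17) to 73.7% (G19), so 32.1% was not particular to the tandem-unit groups. A copy shorter than 100 bp cannot reach this overlap, and copy lengths were not compared between groups. Any merged region counted, including those near a TSS or less than 90% masked, so a region may reach into a copy from flanking sequence. Copies with a region can therefore outnumber the masked distal regions of a group, as in G4 (1096 against 391). Copies whose central 75 bases, the read length, occurred once in the genome overlapped a region in 27.4% (G1) and 19.4% (G2) of cases. Copies with a repeated centre did so in 42.2% and 41.7%. How reads with several equally good alignments were placed is not given in the sources used here, and its part in these shares was not tested. Copies with a unique centre thus overlapped a region less often in G1 and G2, while in G5 the shares were 31.9% for unique and 29.1% for repeated centres.

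Groups in which under 10% of the regions showed a long tandem unit differed widely in how many of their copies overlapped a merged region. G4, with 391 regions of 42.1% median GC and a median width of 515 bp, had a merged region at 1096 of its 1693 copies (64.7%), and at 65.8% of the 1297 copies with a unique centre. G19 was smaller, with 62 regions, and had a merged region at 165 of its 224 copies (73.7%). G6 followed with 504 of 1098 copies (45.9%), G11 with 335 of 889 (37.7%) and G3 with 739 of 2333 (31.7%). At the other end, G9 matched 73044 stretches, of which 0.511% overlapped a region, and G17 matched 34488, of which 0.452% did. G9 and G17 were also more frequent among placed masked windows than among masked distal regions (3.72% against 1.54% for G9, and 1.36% against 0.790% for G17). Unlike G1 and G2, copies of G3 with a unique centre overlapped a region more often (38.7%) than those with a repeated centre (25.4%).

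**Figure D3:**
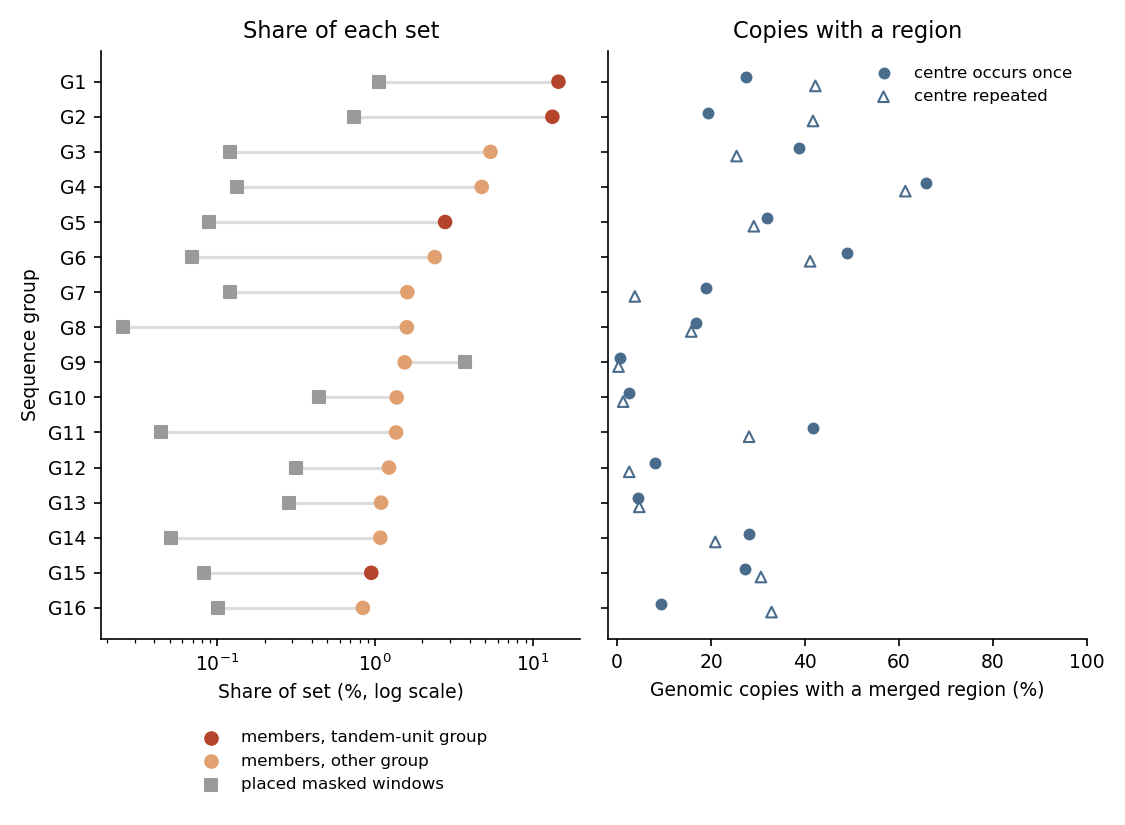
Left, share of the masked distal regions (circles, dark for tandem-unit groups) and of placed masked windows (grey squares) in each of the 16 largest sequence groups, in percent on a log scale. Right, percent of the genomic copies of each group that overlap a merged region, for copies whose central 75-mer occurs once (filled) or more often (open triangles). G1 and G2 hold 14.55% and 13.3% of the regions, and G4 has the highest share of copies with a merged region among the groups drawn.

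Groups also differed in what lay around them. A same-strand copy 3 to 10 kb away, the arrangement of paired LTRs, was found at 3.597% of masked distal regions and 5.43% of placed masked windows. It was more frequent in G8 (20.6% of 131 regions), G23 (25.5% of 55) and G3 (13.5% of 444), and absent from G5, G10, G11 and several smaller groups. G10 and G21 stood apart by position, since 30.1% and 29.3% of their regions were intergenic, against 68.9% of all masked distal regions. G21 was also the group in which the pol III B box, a promoter element of tRNA genes and of SINEs, was most frequent, in 34.5% of its 58 regions. Among annotated elements, 83 masked distal regions aligned to the B1 SINE that RefSeq annotates on chromosome 7, and none aligned to the 403 annotated tRNAs, to 7SL, 7SK or 5S RNA, or to Bc1.

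Masked distal regions were slightly richer in GC than the other distal regions and much richer in CpG. Median GC was 50% against 48.2%, and the within-chromosome difference was 1.88 percentage points ± 1.60 (SD, n = 19 autosomes), higher on 16 of 19 (exact two-sided sign-flip permutation test over autosomes, adjusted p = 0.000134). The ratio of observed to expected CpG was 0.431 against 0.278, a difference of 0.152 ± 0.0244 (SD, n = 19), higher on 19 of 19 autosomes (adjusted p = 4.77e-06 in the same exact test, from the smallest p that 19 autosomes allow, 3.81e-06). Placed masked windows had a median GC of 40.4% and a CpG ratio of 0.200, so masked sequence in the list was also richer in GC than masked sequence at large.

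The higher GC was seen only with the tandem-unit groups included. Their median GC was 61.5% and their CpG ratio 0.523, while the other 5630 masked distal regions had 46.6% and 0.306. Of the regions with more than 60% GC, 94.2% belonged to tandem-unit groups. Without these groups the GC difference turned to -1.63 percentage points (adjusted p = 4.77e-06, exact sign-flip permutation test), and the CpG difference fell to 0.0285 (adjusted p = 0.000938). Taking groups rich in GC and CpG out of the masked distal regions alone lowers both values by construction, and this setting was added after seeing the data. Among regions whose central 75-mer was unique in both sets, GC differed by 0.335 percentage points (exact permutation, adjusted p = 0.279). Against distal regions with at most 10% masked bases it differed by 0.443 (exact permutation, adjusted p = 0.298).

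**Figure D4:**
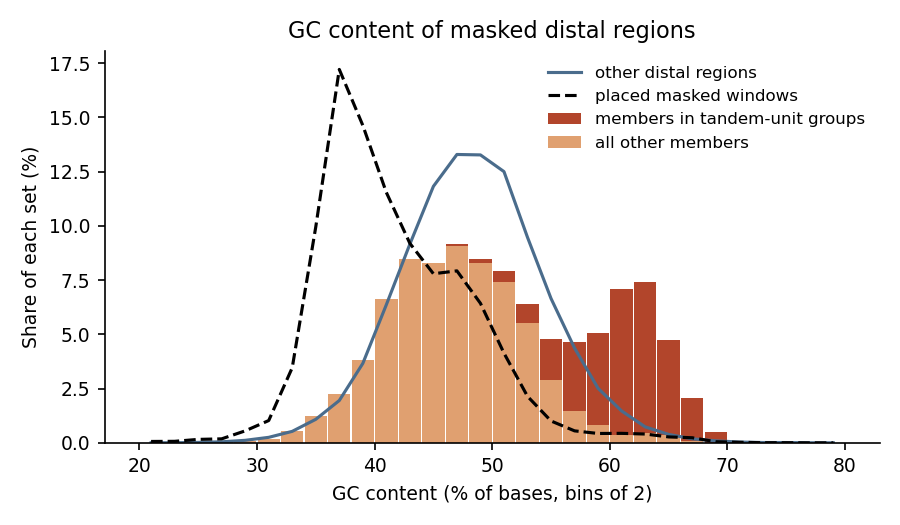
Distribution of GC content in percent of bases, in bins of 2 percentage points, for masked distal regions (bars, with the tandem-unit groups stacked in dark red on the other members), other distal regions (blue line) and placed masked windows (dashed line). The bars rise again above 60%, where tandem-unit groups make up most of them.

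Most masked distal regions lay between genes. Of the 8229, 5671 (68.9%) were intergenic, 2477 (30.1%) had their centre in an intron and 81 (0.984%) in an exon, compared with 45.2%, 47.9% and 6.90% of the other distal regions. The intergenic share was higher by 23.3 percentage points ± 3.31 (SD, n = 19), on 19 of 19 autosomes (exact sign-flip permutation test, adjusted p = 4.77e-06). It was close to the 70.95% of placed masked windows. The nearest TSS was 20382 bp away at the median, against 11930 bp, a difference of 0.223 ± 0.0621 on the log10 scale (SD, n = 19), with the same direction on 19 of 19 autosomes and the same adjusted p (4.77e-06, exact permutation). In placed masked windows the median was 23476 bp. More than 50 kb from any TSS lay 26.3% of masked distal regions and 13.04% of the others. Their nearest other merged region was 6279 bp away at the median, against 3116 bp for the other distal regions. The tandem-unit groups were farther out, with median TSS distances of 31554 bp in G1 and 33451 bp in G2, while G10 lay 6176 bp and G21 7230 bp from a TSS at the median.

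The sequence of these regions limits where reads can be placed. The central 75 bases occurred once in the genome in 5346 masked distal regions (65.0%), in 98.0% of the other distal regions and in 54.0% of placed masked windows. The within-chromosome difference was -32.7 percentage points ± 2.75 (SD, n = 19), lower on 19 of 19 autosomes (exact sign-flip permutation test, adjusted p = 4.77e-06). Masking marks repeated sequence, so this direction is tied to the selection and the test adds little. The central 75 bases had more than 100 copies in 11.1% of masked distal regions, 0.339% of the others and 25.5% of placed masked windows. In tandem-unit groups 42.3% of the regions were unique at their centre, and in all other masked distal regions 75.4% were. When the comparison with placements was limited to unique centres, 4.04% of the regions and 6.69% of the placed windows were masked, so the ratio rose from 0.522 to 0.604 and stayed below 1. Removing the tandem-unit groups from both sides lowered the ratio to 0.370. This follows by construction, since these groups held 31.6% of masked distal regions and 1.98% of placed masked windows.

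Masked distal regions held some motifs more often and others less often than the rest, in exact matches on both strands of the central 200 bp. Regions under 200 bp wide, 2495 of the 8229 and 29501 of all 137884 distal regions, offered less sequence to this search. The YY1 motif AAGATGGCG was found in 1005 of them (12.2%) and in 0.684% of other distal regions, and the AP-2 motif GCCNNNGGC in 1121 (13.6%) against 7.15%. Over whole regions the within-chromosome AP-2 difference was 2.33 percentage points (adjusted p = 0.00877, exact sign-flip permutation test, range over autosomes -3.2 to 9.7), compared with 6.51 in the central 200 bp. The octamer ATGCAAAT was found in 625 (7.60%) against 1.83%. YY1, AP-2, the octamer and the B box GTTCGANNC (1.74% against 0.637%) were higher on 19 of 19 autosomes (exact sign-flip permutation test, adjusted p = 5.72e-06 over 12 motifs). Placed masked windows held the YY1 motif in 1.06%, the AP-2 motif in 0.970% and the octamer in 3.13% of cases.

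The enriched motifs sat in particular groups. The YY1 motif, bound by a zinc finger factor that acts at many promoters, was present in 56.7% of G1, 52.0% of G5, 73.1% of G15, 35.9% of G8 and 22.8% of G12. The AP-2 motif, bound by the TFAP2 factors of trophoblast and ectoderm, was present in 71.9% of G2 and 52.8% of G5. The octamer was present in 88.3% of the 444 G3 regions, 50.3% of the 197 G6 regions and 49.0% of the 49 G24 regions, and in none of the G1 or G2 regions. The B box was present in 34.5% of the 58 G21 regions and in 6.575% of the 1095 G2 regions. Without the tandem-unit groups the AP-2 difference turned to -3.29 percentage points (adjusted p = 7.63e-06, exact sign-flip permutation test), whereas YY1 stayed higher by 2.08 and the octamer by 9.22 percentage points (adjusted p = 7.63e-06 for both). Leaving out groups rich in AP-2 (G2, G5) and YY1 (G1, G5, G15) lowers these 2 differences by construction. The B box difference fell from 1.005 to 0.563 percentage points without these groups (adjusted p = 0.00181, exact sign-flip permutation test, range over autosomes -0.495 to 1.71).

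Several other motifs, among them those of CTCF, SOX and ESRRB, were rarer than in the other distal regions, unlike the octamer (7.60% against 1.83%). The CTCF core motif, the binding sequence of the insulator protein, was found in 6 masked distal regions (0.0729%) against 2.45% of the others. The AP-1 motif TGANTCA was found in 2.22% against 7.49%, the SOX motif AACAATGG in 0.522% against 1.34% and the ESRRB motif TCAAGGTCA, bound by a nuclear receptor of naive pluripotency, in 0.438% against 1.36%. These 4 were lower on 19 of 19 autosomes (exact permutation, adjusted p = 5.72e-06). The TEAD motif ACATTCC (2.72% against 4.89%, adjusted p = 1.37e-05), the NRF1 motif TGCGCATGC (4 regions, 0.0486% against 0.261%, adjusted p = 1.02e-05) and the KLF motif GGGTGTGG (2.78% against 3.66%, adjusted p = 0.00184) were also lower in the same exact test. The KLF difference did not pass the test against distal regions with at most 10% masked bases (-0.384 percentage points, adjusted p = 0.115, exact permutation). The composite OCT4::SOX2 motif, searched as a strict pattern, was found in 1 masked distal region, and its share (0.0122% against 0.0378%) did not pass the test (adjusted p = 0.226, exact permutation). In placed masked windows KLF (0.6785%), TEAD (1.07%), ESRRB (0.1015%), the CTCF core (0.0127%) and NRF1 (0%) had lower shares than in masked distal regions. The SOX (2.38%) and AP-1 (2.57%) shares there were higher. A match is a sequence and not a bound site.

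**Figure D5:**
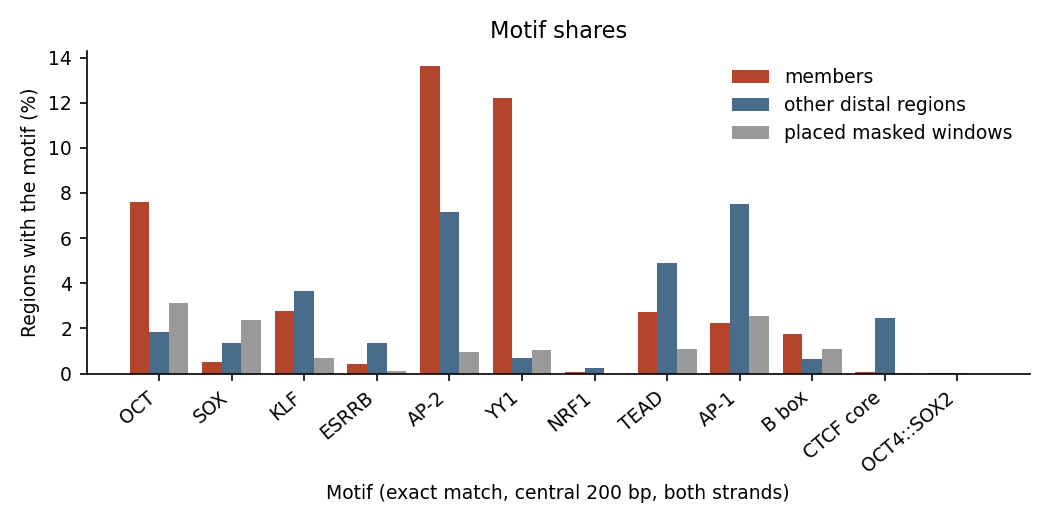
Percent of masked distal regions (red), other distal regions (blue) and placed masked windows (grey) with an exact match of each of 12 motifs in the central 200 bp. Masked distal regions exceed both other sets for OCT, AP-2, YY1 and the B box, and lie below the other distal regions for SOX, KLF, ESRRB, NRF1, TEAD, AP-1 and the CTCF core.

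The widest masked distal regions were rich in GC. The widest, chr1:85220688-85223804, was 3117 bp wide with 61.8% GC and lay in an intron 22538 bp from the nearest TSS, that of Gm7609. The next were chr15:103410028-103412700 (2673 bp, 58.2% GC, nearest TSS that of Gtsf1, a gene of the piRNA pathway) and chr3:6299876-6302323 (2448 bp, 62.7% GC, intergenic). These 3 repeated themselves at shifts of 201, 212 and 208 bp, over 93.7%, 97% and 98% of their central bases. They were counted in no group, because a representative had to span at least 50% of a region. The other 2 of the 5 widest, chr18:90470159-90472436 and chr17:13550821-13553081, were 2278 and 2261 bp wide and did not reach the 75% match.

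Masked distal regions were spread thinly, with a few dense places. They fell in 6162 windows of 100 kb, of which 4672 held a single one and 38 held at least 5. The densest windows all lay on chromosome 8. Both chr8:19900001-20000000 and chr8:20300001-20400000 held 16, out of 35 and 34 distal regions, and chr8:20500001-20600000 held 14 out of 42. The TSSs nearest to the window middles were those of the predicted genes Gm20786, Gm15319 and Gm21182. These regions differed from the tandem-unit groups, with median GC between 39.9% and 41.9%, and all but 1 of them belonged to no group. In the 3 windows 7, 5 and 8 of them had a partner of related sequence in another of these windows, and 56.2%, 50% and 28.6% were unique at their centre.

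Introns of 1398 protein-coding genes held a masked distal region, and in 1063 of these genes it was a single one. Gpc5, which encodes a heparan sulfate proteoglycan of the cell surface, held the most with 17 of its 140 distal intron regions (12.1%). Sntg1, encoding a syntrophin, held 10 of 33 (30.3%), Agbl4, encoding a carboxypeptidase that trims glutamate from tubulin, held 8 of 55 (14.5%) and Pcdh15, encoding a protocadherin of hair cells, held 8 of 27 (29.6%). In Pcdh15, 6 of the 8 were of tandem-unit groups. The predicted gene Gm20388, which spans 4435 kb on chromosome 8, held 10 of 430 (2.33%). These genes are long, from 938 to 4435 kb, and were named for their counts, which are not corrected for length.

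Near pluripotency genes masked distal regions were few. Within 50 kb of a TSS of 21 such genes lay 386 distal regions, of which 4 (1.04%, 95% Wilson interval 0.404 to 2.63) were masked, against 5.97% of all distal regions. The 5.97% also covers regions more than 50 kb from any TSS, where 26.3% of masked distal regions and 13.04% of the others lay. None of the 19 regions around Pou5f1, the 12 around Sox2, the 20 around Nanog or the 42 around Esrrb was among them. The 4 lay near Dppa3, a factor that protects methylation in the early embryo (14096 bp from its TSS), Dppa5a (42200 bp), Lefty1, an inhibitor of Nodal signaling (43137 bp), and Zfp42, which encodes the ES cell marker REX1 (46831 bp). Around 11 trophectoderm genes 1 of 154 distal regions was masked (0.649%, interval 0.115 to 3.59), 41825 bp from the TSS of Tead4, which encodes a transcription factor of that lineage.

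Genes that silence repeats themselves had 4 masked regions among 221 within 50 kb (1.81%, 95% Wilson interval 0.706 to 4.56), for 18 genes. Of these, 2 lay near Setdb1, which encodes a histone H3 lysine 9 methyltransferase, and 1 near Trim28, which encodes its corepressor partner. The remaining one was the masked distal region nearest to a TSS of any listed gene, 13920 bp from that of Mphosph8, a subunit of the HUSH complex that silences L1 elements, and 1007 bp from a TSS of Parp4. It was 436 bp wide with 47.2% GC, lay in an intron, had a unique centre and aligned to G12 at 93.6% identity. Its central 300 bp, chr14:56654178-56654477 (GRCm38, plus strand), are printed to set beside the G12 member above, with the YY1 motif in capitals.
Mphosph8 region: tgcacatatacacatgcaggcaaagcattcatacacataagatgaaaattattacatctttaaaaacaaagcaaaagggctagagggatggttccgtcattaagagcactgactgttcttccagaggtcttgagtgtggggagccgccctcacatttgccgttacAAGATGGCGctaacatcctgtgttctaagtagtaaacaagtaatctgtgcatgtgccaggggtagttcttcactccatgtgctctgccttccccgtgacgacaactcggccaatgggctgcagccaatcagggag
Around 8 genes of the 2-cell-like state, in which ES cells transiently express genes of the early embryo, 4 of 47 distal regions were masked (8.51%, interval 3.36 to 19.9), 1 each near Zscan4c, Zscan4d, Tcstv1 and Tcstv3. These genes belong to families of near-identical copies, and the region near Zscan4d had 19 exact copies of its central 75 bases. The interval includes the 5.97% of all distal regions, whereas those of the other lists end below it. All intervals cover counting error only, and regions near one gene are not independent.

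The minimum of 90% masked bases set no sharp boundary. The 2059 regions with 90% to under 95% masked bases had a median width of 310 bp, a median GC of 48.0% and a unique centre in 79.9% of cases. For the 1901 regions just outside, with 85% to under 90%, these values were 336 bp, 48.2% and 82.4%. The 6170 regions with 95% or more were narrower (259 bp), richer in GC (51.1%) and less often unique (59.98%). Short tandem repeats, with units of 1 to 6 bp, took up 0.535% of the bases of a masked distal region on average, against 0.471% in the other distal regions and 1.83% in placed masked windows.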

How the data were processed

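ATAC-seq was done by the study's authors on 12 libraries, read as paired ends. The authors aligned reads to mm10 (GRCm38) with STAR 2.6.1c, removed duplicates with Picard, called peaks with MACS2 2.1.1.20160309 and merged the peaks of both cell lines with bedtools, per the labels and the study's methods. The deposited list gives chromosome, start and end of each merged region, with no score, count or sample. The study removed peaks over 5 kb and those in input samples or on a blacklist for its own analysis. The deposited list still holds 14 autosomal regions over 5000 bp, so it was not filtered on width, and whether the other removals were applied, and how reads with several alignments were treated, are not given in the sources used here. Depth is unknown, and regions of libraries with more reads or higher quality may weigh more in the list.

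Masked bases are the lower-case letters of RefSeq GRCm38.p6, whose masking may differ from that of other copies of the same build. Genes and TSSs are from GENCODE M21, and positions are counted from 1. For 100 random placements each width was put on assembled bases of the same chromosome, more than 1 kb from any TSS. Features of placed windows are from the first placement. Sequences were aligned with minimap2 2.31, keeping alignments of at least 75% identity. Groups were made greedily from the most connected regions, and representatives that aligned to each other were joined. A genomic copy is a stretch aligned to at least 50% of a representative, joined within 100 bp. Exact copies of the central 75 bases were counted on both strands of 21 chromosomes. Members and other distal regions were compared by an exact two-sided sign-flip permutation test on within-chromosome differences over 19 autosomes, with Benjamini-Hochberg adjustment over 5 measures and, separately, over 12 motifs. Autosomes share their libraries and are not replicates of a condition, so these p-values measure the spread between chromosomes. Statistics and searches were tested on simulated data (Python 3.11.15, numpy 2.4.6, scipy 1.17.1).

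The named regions were the 5 widest, the 3 windows of 100 kb with the most members, the 5 genes with the most members in introns, the member nearest to a TSS of a listed gene and members of the largest sequence groups. Members, motifs and gene lists were chosen with earlier results of these data known. Alternatives were other masking minimums, comparators, widths and lengths searched, and, added after seeing the data, leaving out the tandem-unit groups, keeping unique centres and a higher identity for groups. Regions on X and Y were left out of the comparisons.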

Additional observations from a re-analysis of the deposited data

Results flagged for a closer look

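Regions on the sex chromosomes were left out of the comparisons, and those that met every other criterion are given here as counts. On X, 484 of 3132 distal regions up to 5000 bp wide were at least 90% masked (15.5%, 95% Wilson interval 14.2 to 16.8). Their median GC was 59.2%, and 81.4% were intergenic. On Y it was 41 of 81 (50.6%, interval 39.9 to 61.2), with a median GC of 61.9%. These intervals cover counting error only. The difference from the autosomes was not tested, and these shares were not set against random placements on X and Y.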

How the results depend on the processing

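Of 81 alternative settings, 61 kept direction and side of the threshold, or moved a share by less than its interval. The masked share of 5.97% became 8.81% at a minimum of 80% masked bases, 2.97% at 100%, 10.3% over the central 100 bp, 5.82% with TSSs of protein-coding genes only and 5.29% among regions at least 200 bp wide. The ratio to placements of 0.522 became 0.620 at 80%, 0.386 at 100%, 0.479 for placements anywhere set against all autosomal regions, 0.493 at 200 bp or wider, 0.604 for unique centres and 0.370 without the tandem-unit groups, and stayed below 1 in each. The GC difference of 1.88 percentage points became 0.443 (adjusted p = 0.298) against distal regions at most 10% masked, 0.335 (adjusted p = 0.279) among unique centres and -1.63 without the tandem-unit groups, in the exact sign-flip permutation test. In the same exact test without these groups, the AP-2 motif difference was -3.29 and the KLF difference -0.397 percentage points (adjusted p = 0.229), and the KLF difference was -0.384 (adjusted p = 0.115) against the least masked regions. Over whole regions the AP-2 difference fell to 2.33 percentage points (adjusted p = 0.00877, exact test), while the B box (3.07), KLF (-3.05) and AP-1 (-10.04) differences moved away from 0 by over 1.5 times. Whole masked distal regions were narrower than the others (median 269 against 349 bp), and the part of width in these values was not tested. Without the tandem-unit groups YY1 fell to 2.08 and the B box to 0.563 percentage points, and the TSS distance fell to 0.135 (log10). With 50 bases searched the unique share differed by -49.3 percentage points. The GC difference was 4.12 at 100% masked bases and 1.125 at 80%. The composite OCT4::SOX2 motif passed the exact test over whole regions (-0.0490, adjusted p = 0.0185) and against the least masked regions (-0.0361, adjusted p = 0.0344), but it rests on a single masked region. At 85% identity 56.0% of the masked distal regions belonged to a group, against 62.7%. The cause of each change was not tested, except that leaving out sets with high GC, AP-2 or YY1 shares changes these values by construction. The same holds for the ratio without the tandem-unit groups, which held a larger share of masked distal regions than of placed masked windows. A stricter threshold of the peak caller could not be tried, since the list carries no score. No paired analysis was possible because all libraries were joined in 1 list that holds no value per sample. The unknown depth limits what the absence of a region means: a copy without one was not called, which does not show that it was closed.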
